A study of Mus musculus with 24 samples.

Results

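Claudins are the membrane proteins that build the strands of the tight junction, and 9 of their genes are described here in sorted epithelial cells of the mouse trachea: Cldn1, Cldn3, Cldn4, Cldn7, Cldn8, Cldn10, Cldn12, Cldn18 and Cldn23. They were taken as a named list, and for each gene the estimated counts and the TPM of its transcripts were summed in every library. They are 9 of the 35855 genes in the files, and 32 of those carry a Cldn symbol followed by a number. The list was drawn up with the values of these same libraries known, so the levels of its members and their differences between groups and batches are given as a description, with no p-value.

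The libraries came from naive wild-type female mice, C57BL/6 by the title of the series, and each holds the RNA of 1000 sorted airway epithelial cells amplified by the SmartSeq2 protocol for cell populations. The 3 groups are BCAM HI and BCAM LO, named by the level of the surface protein BCAM on the sorted cells and called BCAM high and BCAM low below, and DIFFERENTIATED EPCS, called differentiated. Each group has 8 libraries, 5 of batch 1 (replicates 1 to 5) and 3 of batch 2 (replicates 6 to 8), and the labels do not say what the batch stands for. The labels give no animal or culture for a library, so p-values measure the spread between these libraries, which may be technical.

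A claudin joins neighbouring cells by binding claudins of the same and of the facing membrane, and its tail inside the cell binds scaffold proteins such as ZO-1. Some claudins seal the space between cells and others form pores for small ions, so the mixture in a cell layer sets which ions pass. In the airway the tight junction lies near the lumen between the tall cells, while basal cells sit on the basement membrane below it.

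Levels are given in 2 units. CPM are counts relative to library totals scaled by edgeR's TMM method, and are used to compare 1 gene between groups. TPM are the deposited values per transcript length and are used to compare genes with each other inside a library. Between groups TPM are shifted as a whole: over the 12211 genes tested, the median difference on the log2(TPM + 0.1) scale was 0.26 for BCAM high minus BCAM low, 0.75 for BCAM high minus differentiated and 0.48 for BCAM low minus differentiated, whereas on the fitted CPM scale these medians were 8.83e-05, 0.02 and 0.02. A gene is called below where edgeR's quasi-likelihood test gave a Benjamini-Hochberg adjusted p under 0.05 over all genes tested.

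Library totals ran from 1824619 to 4440072 estimated counts. The basal keratin Krt5 averaged 1672 ± 295 CPM in the BCAM high group, 929 ± 137 in the BCAM low group and 0.854 ± 1.22 in the differentiated group (SD, n = 8), and Trp63, the transcription factor of basal cells, averaged 380.3 ± 216, 204 ± 53.3 and 8.19 ± 9.78 CPM. Bcam itself averaged 509 ± 133, 376 ± 91.2 and 395 ± 328 CPM, and in the differentiated group it was at 109 to 252 CPM in batch 1 and at 458 to 907 CPM in batch 2. The differentiated libraries of the batches stand apart: summed over 12 secretory cell markers they held 298897 to 435262 CPM in batch 1 and 16006 to 110349 in batch 2, and over 10 markers of the thyroid follicle 13873 to 26084 and 49767 to 117351 CPM. The BCAM high and BCAM low libraries held at most 1285 CPM of the thyroid markers. Replicates 6 of BCAM high and of differentiated stand apart by the surfactant gene Sftpc, whose values are given with Cldn18 below. In libraries of pooled cells, fewer cells of a type and less RNA per cell cannot be told apart.

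Of the 9 claudins, 8 passed the filter on low counts and Cldn18 did not. By mean TPM in the BCAM high group the order was Cldn7 (256 ± 37.3), Cldn3 (149 ± 22.9), Cldn4 (67.1 ± 14.5), Cldn8 (60.1 ± 14.1), Cldn10 (41.5 ± 42.5), Cldn23 (17.7 ± 10.6), Cldn18 (7.97 ± 22.5), Cldn12 (6.86 ± 2.31) and Cldn1 (2.12 ± 0.724; SD, n = 8). The rank of Cldn18 rests on replicate 6 alone, since its median was 0 TPM and 6 of the 8 libraries had no count. From Cldn4 down to Cldn12 no neighbours in this order differed beyond their spread. Cldn7, Cldn3 and Cldn4 were apart from each other, and Cldn1 lay below Cldn12. The distance of Cldn7 from Cldn3 holds for TPM only. In BCAM high Cldn7-205, a transcript of 373 bases, held 41.7% of the Cldn7 TPM and 15.5% of its counts. In CPM, which are not divided by length, Cldn7 at 162 ± 17.9 and Cldn3 at 147 ± 25.7 overlapped there. In BCAM low, Cldn3 at 394 ± 57.5 TPM and Cldn7 at 394 ± 86.3 TPM were level, followed by Cldn4 at 118 ± 46.5 TPM. In the differentiated group Cldn3 at 455 ± 122 TPM and Cldn7 at 379 ± 119 TPM led, again within their spread of each other, and Cldn4 followed at 80.4 ± 17.0 TPM. Cldn1 had the lowest mean TPM of the 8 filtered claudins in each group.

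Between BCAM high and BCAM low, 4 of the 8 claudins were called, all lower in BCAM high. Of all genes tested 7.02% were called there, 2.43% as higher and 4.59% as lower. Between BCAM high and differentiated 6 of 8 were called, 5 lower and 1 higher in BCAM high, beside 41.3% of all genes, with 22.0% lower and 19.4% higher. Between BCAM low and differentiated 2 of 8 were called, both lower in BCAM low, beside 33.5% of all genes, with 17.1% lower and 16.3% higher. The median log2 change of the 8 was -0.38, -1.09 and -0.30 in these comparisons. The comparisons share libraries, and the members were picked from these values, so nothing is read from the counts. Of the 8, Cldn3, Cldn7 and Cldn23 lay wholly lower in BCAM high than in BCAM low, a state found in 0.999% of all genes, and Cldn3, Cldn4 and Cldn7 wholly below differentiated, found in 7.30%. None of the 8 was free of overlap between BCAM low and differentiated, where 7.27% of all genes were.

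**Figure D1:**
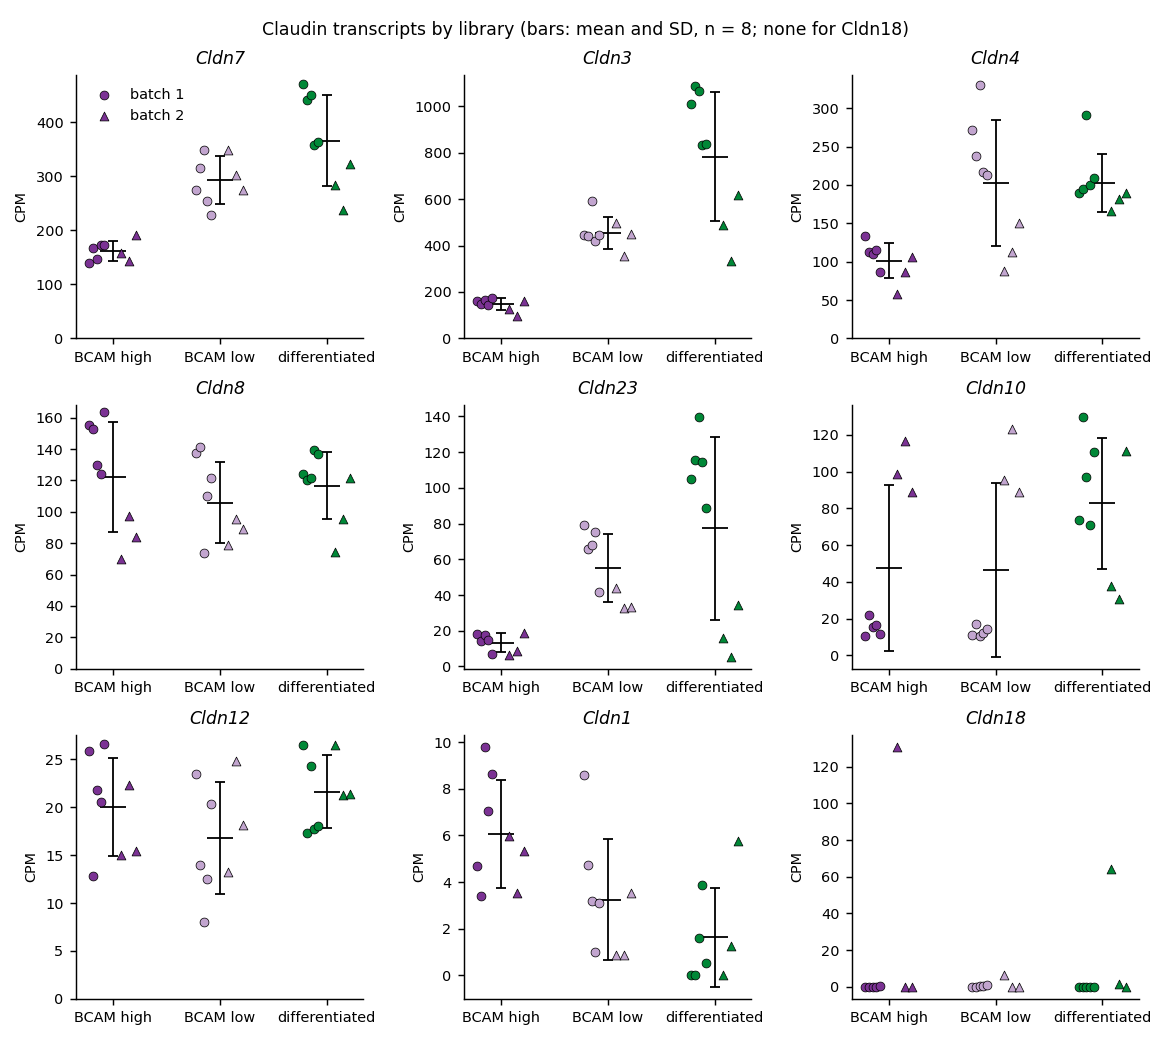
CPM of the 9 claudins in each of the 24 libraries; the x axis gives the group, circles are batch 1, triangles batch 2, and bars give the mean and SD over 8 libraries, left out for Cldn18. Cldn7 and Cldn3 lie lower in all BCAM high libraries than in any other library, Cldn10 splits by batch in both BCAM groups, and Cldn18 stands above 6 CPM in 3 libraries only.

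Of the claudins known mainly as sealing proteins, Cldn3 differed most in CPM between BCAM high and the other groups. Cldn3 (ENSMUSG00000070473, chr5:134986214-134987472, plus strand, GRCm38 here and below) ran from 95.9 through a median of 154 to 176 CPM in the BCAM high group, from 353 through 444 to 591 CPM in the BCAM low group and from 331 through 835 to 1087 CPM in the differentiated group. Every BCAM high library lay below every other library, while BCAM low and differentiated overlapped. Of its exon bases 40 are shared with Wbscr25 on the opposite strand, whose reads cannot be told apart if strand was not counted. The fitted log2 change was -1.64 ± 0.15 (SE) for BCAM high against BCAM low and -2.36 ± 0.154 against differentiated. For BCAM low against differentiated it was -0.72 ± 0.147, and there the batches parted. In batch 1 the BCAM low libraries, at 419 to 591 CPM, lay wholly below the differentiated ones at 833 to 1087, and in batch 2 they overlapped, at 353 to 497 against 331 to 618 CPM. The fitted value was -1.05 in batch 1 alone and -0.14, not called, in batch 2 alone. On the log2(TPM + 0.1) scale it was -0.17 against the shift of 0.48, also not called.

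The split of Cldn3 in the differentiated group by batch moved with other lists of genes. Cldn3 averaged 966 ± 123 CPM in the 5 differentiated libraries of batch 1 and 479 ± 144 in the 3 of batch 2, a fitted change of -1.01 on the log2 scale, with no overlap. Of all genes, 20.1% were called between the batches in this group. The secretory and thyroid sums given above also do not overlap between these batches, and their part in the change of Cldn3 was not tested.

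Cldn7, a claudin of epithelia in general that binds the adhesion protein EpCAM, followed the same order with smaller differences. Cldn7 (ENSMUSG00000018569, chr11:69964779-69967885, plus strand) ran from 139.7 through a median of 163 to 192 CPM in the BCAM high group, from 228 through 288 to 349 CPM in the BCAM low group and from 237 through 361 to 472 CPM in the differentiated group. All BCAM high libraries again lay below all others. The log2 change was -0.86 ± 0.122 for BCAM high against BCAM low and -1.17 ± 0.123 against differentiated. For BCAM low against differentiated it was -0.31 ± 0.121 and not called, which depended on the libraries: it was called in batch 1 alone at -0.56 and without the 3 libraries numbered 6 at -0.39, and it was 0.14 in batch 2 alone and 0.11 on the log2(TPM + 0.1) scale. Leaving out any 1 of 7 single libraries also made it a call, at values from -0.38, without differentiated replicate 7, to -0.31, without BCAM high replicate 8; the other 5 were BCAM high replicates 1 and 7, BCAM low replicates 3 and 6 and differentiated replicate 6. In the differentiated group Cldn7 averaged 417 ± 52.1 CPM in batch 1 and 281 ± 43.0 in batch 2, again with no overlap.

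Cldn4 lies near Cldn3 on chromosome 5, with its start 39280 bases away and on the other strand; it takes part in sealing and in passage of chloride in other epithelia. Cldn4 (ENSMUSG00000047501, chr5:134945119-134946934, minus strand) ran from 58.3 through a median of 108 to 133 CPM in the BCAM high group, from 88.2 through 215 to 330.3 CPM in the BCAM low group and from 167 through 192 to 291 CPM in the differentiated group. BCAM high lay wholly below differentiated and overlapped BCAM low. The log2 change was -0.95 ± 0.154 against BCAM low and -1.02 ± 0.155 against differentiated, both called, and -0.07 ± 0.153 for BCAM low against differentiated. On the log2(TPM + 0.1) scale the value against differentiated was -0.26 beside the shift of 0.75, and it was not called there.

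The BCAM low libraries held 2 separate levels of Cldn4. In batch 1 they were at 272, 237, 330.3, 217 and 212 CPM, and in batch 2 at 88.2, 112 and 151 CPM. The fitted change between the batches in this group was -1.12 on the log2 scale, and 11.1% of all genes were called between the batches there. BCAM high against BCAM low was -1.18 in batch 1 alone and -0.48, not called, in batch 2 alone, where the groups overlapped. The summed CPM of 11 suprabasal and hillock markers in BCAM low also differed by batch, at 6723 to 7702 in batch 1 and 3718 to 5255 in batch 2, led by Anxa1, and none of the 11 was at 0 in that group. Other sums did not overlap between the batches of BCAM low either, and some were higher in batch 2. The secretory sum was 34784 to 56656 CPM in batch 1 and 73866 to 85681 in batch 2. The submucosal gland sum was 1978 to 4449 and 6484 to 12527 CPM. In differentiated the suprabasal and hillock sum was 4758 to 6331 CPM in batch 1 and 750 to 2911 in batch 2, while Cldn4 overlapped between these batches. The part of any of these lists in the change of Cldn4 was not tested.

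The 250 bases before the RefSeq start of both neighbours are shown because Cldn3 and Cldn4 lie near each other and were both lower in BCAM high; both read 5′ to 3′ on the strand of the gene (RefSeq, GRCm38.p6), with capitals marking a GC box (GGGCGG) or an E-box (CAGGTG) on either strand.
Cldn3, chr5:134985964-134986213, plus strand: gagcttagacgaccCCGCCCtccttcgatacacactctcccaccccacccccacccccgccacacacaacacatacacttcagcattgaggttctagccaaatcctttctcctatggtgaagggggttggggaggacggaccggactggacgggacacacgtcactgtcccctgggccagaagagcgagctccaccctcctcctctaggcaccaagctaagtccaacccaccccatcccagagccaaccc
Cldn4, chr5:134946935-134947184, minus strand: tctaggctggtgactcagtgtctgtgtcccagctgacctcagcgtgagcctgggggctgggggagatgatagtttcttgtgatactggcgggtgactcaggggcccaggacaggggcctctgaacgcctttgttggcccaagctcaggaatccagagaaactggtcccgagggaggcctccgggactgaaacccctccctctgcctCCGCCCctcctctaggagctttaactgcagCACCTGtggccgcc
The Cldn3 window held 1 GC box, which starts 236 bases before the start site. The Cldn4 window held 1 GC box at 44 bases and 1 E-box, the core letters that repressors such as Snai2 bind, at 14 bases before the start. Neither window held the Grainyhead-like motif AACCNGTT or TATAAA, all searched on both strands, and no match overlapped another. Of 32851 promoter windows of this length, 32.7% held the GC box, 17.2% the E-box, 12.4% TATAAA and 1.79% AACCNGTT. A match is a description of letters only.

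Cldn8 also belongs to the sealing claudins, best known from the kidney's collecting duct, and its CPM overlapped between all groups. Cldn8 (ENSMUSG00000050520, chr16:88560828-88563183, minus strand) ran from 69.6 through a median of 127 to 164 CPM in the BCAM high group, from 73.9 through 103 to 141 CPM in the BCAM low group and from 74.6 through 122 to 139 CPM in the differentiated group. The log2 change was 0.18 ± 0.125 for BCAM high against BCAM low, 0.03 ± 0.126 for BCAM high against differentiated and -0.14 ± 0.126 for BCAM low against differentiated, and none was called. On the log2(TPM + 0.1) scale BCAM high against differentiated was 0.79, called there, against the shift of 0.75 in all genes. By batch, Cldn8 in BCAM high was at 124 to 164 CPM in batch 1 and 69.6 to 97.3 CPM in batch 2, with no overlap.

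Cldn1, a barrier claudin of the epidermis, had its highest mean in BCAM high. Cldn1 (ENSMUSG00000022512, chr16:26356642-26371841, minus strand) ran from 3.42 through a median of 5.65 to 9.79 CPM in the BCAM high group, from 0.857 through 3.15 to 8.59 CPM in the BCAM low group and from 0 through 0.913 to 5.76 CPM in the differentiated group. These levels stand on few reads, and all ranges overlapped. The log2 change was 0.90 ± 0.548 against BCAM low and 1.75 ± 0.607 against differentiated, of which only the second was called. In batch 2 alone the second was 1.01 and not called.

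Cldn23 had a low level in BCAM high and a large batch split in the differentiated group. Cldn23 (ENSMUSG00000055976, chr8:35824712-35826559, minus strand) ran from 6.27 through a median of 14.4 to 19.0 CPM in BCAM high and from 32.6 through 54.6 to 79.3 CPM in BCAM low, with no overlap. In the differentiated group it was at 105, 116, 139.8, 114 and 89.0 CPM in batch 1 and at 15.8, 5.55 and 34.6 CPM in batch 2. The differentiated libraries of batch 1 thus lay above all BCAM low libraries, and 1 of batch 2 lay below every BCAM high library. The log2 change was -2.0 ± 0.361 for BCAM high against BCAM low and -2.28 ± 0.37 against differentiated, both called, and -0.29 ± 0.339 for BCAM low against differentiated. In batch 2 alone the first 2 were -1.67 and -0.71, neither called, and the last was 0.97, against -0.78, called, in batch 1 alone. The fitted change between batches within the differentiated group was -2.58, beside the secretory and thyroid sums above, whose part was not tested.

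Cldn12, an unusual claudin whose tail lacks the motif that binds scaffold proteins, overlapped between all groups. It (ENSMUSG00000046798, chr5:5489537-5514958, minus strand) ran from 12.9 through a median of 21.2 to 26.6 CPM in the BCAM high group, from 8.01 through 16.1 to 24.9 CPM in the BCAM low group and from 17.3 through 21.4 to 26.5 CPM in the differentiated group. No comparison was called, between groups or batches, and the log2 changes were 0.26 ± 0.207, -0.11 ± 0.21 and -0.37 ± 0.212 in the order used above.

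Cldn10, a claudin that forms ion pores, separated by batch in both BCAM groups. Cldn10 (ENSMUSG00000022132, chr14:118787908-118875489, plus strand) was at 10.7, 22.1, 15.4, 16.7 and 11.8 CPM in BCAM high of batch 1 and at 98.5, 117 and 88.9 CPM in batch 2. In BCAM low it was at 11.4, 17.3, 10.8, 12.2 and 14.4 CPM in batch 1 and at 95.7, 123 and 88.8 CPM in batch 2. In the differentiated group it was at 73.7, 129.9, 97.1, 71.1 and 111 CPM in batch 1 and at 37.8, 30.7 and 111 CPM in batch 2. Batch 2 was thus wholly above batch 1 in both BCAM groups, by 6.61-fold and 7.77-fold of the mean, while the differentiated batches overlapped at a ratio of 0.62.

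The differences of Cldn10 between groups turned with the batch. Over all libraries the log2 change was -1.68 ± 0.502 for BCAM high against differentiated and -1.77 ± 0.508 for BCAM low against differentiated, both called, and 0.09 ± 0.466 between the BCAM groups. In batch 1 alone these were -2.65 and -2.87, and in batch 2 alone 0.75 and 0.78, not called. The difference between the batches in these 2 comparisons was 3.40 and 3.63 on the log2 scale, where 8.69% and 11.4% of all genes were called for such a difference. Without the 3 libraries numbered 6 the values over both batches were -1.98 and -2.08. With no term for batch they were -0.81 and -0.86 and no longer called.

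Marker sums of secretory cells and of ionocytes, the rare airway cells rich in ion channels, are given beside Cldn10. The secretory sum of BCAM high overlapped between the batches, at 28167 to 35206 CPM in batch 1 and 26952 to 34538 in batch 2, and in BCAM low it was 34784 to 56656 and 73866 to 85681 CPM. The sum of 8 ionocyte markers in BCAM high was 110 to 156 CPM in batch 1 and 200.1 to 208 in batch 2, of which the proton pump gene Atp6v1c2 made up 122 and 195 CPM on average; Atp6v0d2 and Tmem61 were at 0 in batch 2. In BCAM low that sum was 79.6 to 117 and 150.0 to 183 CPM, of which Atp6v1c2 made up 83.8 and 156 CPM on average, with Tmem61 at 0 in batch 2. The ionocyte sum, mostly 1 gene, thus did not overlap between batches in either BCAM group, nor did the secretory sum in BCAM low. Of 4 ionocyte markers tested none was called between the batches over all groups, where 21.4% of all genes were. That test takes the groups together and can miss a change in the BCAM groups alone. Being mostly 1 gene, the sum is not read as a change of ionocytes, and whether they changed was not tested. The part of these markers in the level of Cldn10 was not tested.

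The Cldn10 gene has an upstream and a downstream start, and both carried the batch difference. The 250 bases before each RefSeq start are shown because transcripts of both starts carried the batch difference while the windows differ in composition (GRCm38.p6, plus strand, with capitals marking GC boxes). The RefSeq downstream start, base 118854950, lies past base 118854732, where the counted transcript Cldn10-203 begins. Most of the downstream window is thus not in front of the start whose TPM are given.
Cldn10 upstream start, chr14:118787621-118787870: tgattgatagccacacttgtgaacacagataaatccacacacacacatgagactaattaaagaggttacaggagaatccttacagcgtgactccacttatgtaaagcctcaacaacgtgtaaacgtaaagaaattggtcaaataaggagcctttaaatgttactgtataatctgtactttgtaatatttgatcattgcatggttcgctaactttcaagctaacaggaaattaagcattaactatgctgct
Cldn10 downstream start, chr14:118854700-118854949: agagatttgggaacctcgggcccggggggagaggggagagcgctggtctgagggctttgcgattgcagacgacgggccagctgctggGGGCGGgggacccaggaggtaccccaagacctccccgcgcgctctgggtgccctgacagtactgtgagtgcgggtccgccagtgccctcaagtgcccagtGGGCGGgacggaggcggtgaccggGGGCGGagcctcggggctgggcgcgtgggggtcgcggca
The upstream window was 36.0% G and C with none of the 4 motifs. The downstream one was 72.4% G and C with 3 GC boxes, at 163, 63 and 39 bases before the RefSeq start. All 3 lie past the start of Cldn10-203. In BCAM high, transcripts of the upstream start averaged 6.05 ± 2.92 TPM in batch 1 and 59.1 ± 6.08 in batch 2, and those of the downstream start 5.02 ± 1.29 and 33.2 ± 11.6 TPM. In BCAM low the upstream start averaged 5.40 ± 3.04 and 44.7 ± 20.4 TPM and the downstream start 3.80 ± 2.72 and 26.9 ± 1.24 TPM. In differentiated the upstream start averaged 28.3 ± 7.78 and 22.6 ± 14 TPM and the downstream start 14.3 ± 2.10 and 14.03 ± 13.7 TPM. The upstream start gave 56.9% ± 14.9, 58.9% ± 22.9 and 65.6% ± 6.76 of the Cldn10 TPM in BCAM high, BCAM low and differentiated.

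**Figure D2:**
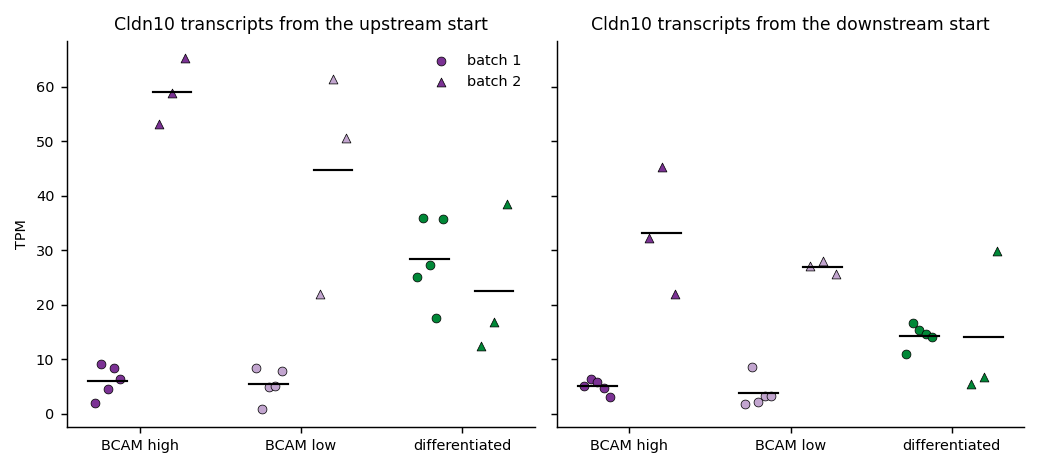
TPM of Cldn10 transcripts that begin at the upstream (left) and downstream (right) start, by group on the x axis; circles are batch 1, triangles batch 2, and lines mark the mean of each batch. In both BCAM groups batch 2 lies above batch 1 at either start, and the differentiated batches overlap.

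Cldn18, the claudin of alveolar and gastric epithelium, was read almost only in the libraries numbered 6. Cldn18 (ENSMUSG00000032473, chr9:99689461-99717267, minus strand) had 417 of the 419 counts of the BCAM high group in replicate 6, 14 of the 20 counts of BCAM low in replicate 6 and 114 of the 118 counts of differentiated in replicate 6. These are 131, 6.18 and 64.4 CPM. The next highest libraries were at 0.480, 0.886 and 1.71 CPM, and 6, 4 and 6 libraries of the groups had no count, which allows up to 3 counts in each. No group difference is given for Cldn18, since 1 library in each group holds most of its reads.

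The surfactant transcript Sftpc stood apart in replicate 6 of BCAM high and of differentiated, but not in replicate 6 of BCAM low. Sftpb and Sftpa1 in BCAM high replicate 6 were at 42.3 and 127 CPM, against at most 6.57 and 19.7 in the others of that group. In differentiated replicate 6 they were at 286 and 1219 CPM, against at most 25.2 and 540. In BCAM low replicate 6 Sftpb, at 1.32 CPM, lay inside the 0 to 3.89 of the others. Sftpa1 was highest there, at 22.1 against at most 15.4. Sftpd was highest in replicate 6 of BCAM high (126 CPM, next 90.6) and of BCAM low (358, next 314). In differentiated replicate 6 Sftpd was at 500 CPM, inside the range of 121 to 1231 CPM of the others in that group. Sftpc, the surfactant gene that defines alveolar type 2 cells, was at 444 CPM in BCAM high replicate 6 and at 0 to 0.294 CPM in the other 7 of that group. In differentiated replicate 6 it was at 4135 CPM and in the other 7 at 0.528 to 102. In BCAM low replicate 6 it was at 3.53 CPM and in the other 7 at 0 to 2.57. Ager, a gene of alveolar type 1 cells, was at 317 CPM in BCAM high replicate 6 and at 0.734 to 23.7 in the others of that group. In BCAM low replicate 6 Ager was at 14.6 CPM and in the others of that group at 0.229 to 3.86. In the differentiated group Ager was at 185 to 923 CPM in the 7 libraries other than replicate 6, which had 1041. The summed CPM of all 9 alveolar markers ran between 126 and 1205 for BCAM high, between 498 and 2376 for BCAM low and between 2918 and 27318 for differentiated, led by Lyz2, which macrophages and gland cells also express, except in BCAM high of batch 2, where Sftpc led. Lamp3 was at 0 in BCAM low of batch 2 and in differentiated of batch 1, and 6 of the 9 passed the filter. Their part in the counts of Cldn18 was not tested.

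**Figure D3:**
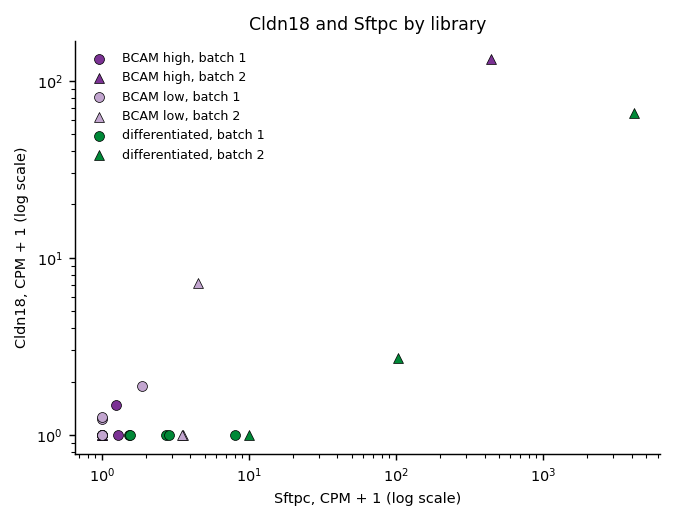
Cldn18 (y axis) against Sftpc (x axis) in each library, both as CPM + 1 on log scales; colours give the group, circles batch 1 and triangles batch 2. Cldn18 is highest in BCAM high replicate 6 (131 CPM) and differentiated replicate 6 (64.4 CPM), which hold the highest Sftpc of their groups (444 and 4135 CPM).

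The reads of Cldn18 fell on transcripts of its downstream start. That start held 419 estimated counts over the BCAM high libraries, 18.2 over BCAM low and 118 over differentiated, and the upstream start 0, 1.76 and 0.432 estimated counts. The windows before both starts are shown because the counts separate them (RefSeq, GRCm38.p6, minus strand); neither held any of the 4 motifs.
Cldn18 upstream start, chr9:99717268-99717517: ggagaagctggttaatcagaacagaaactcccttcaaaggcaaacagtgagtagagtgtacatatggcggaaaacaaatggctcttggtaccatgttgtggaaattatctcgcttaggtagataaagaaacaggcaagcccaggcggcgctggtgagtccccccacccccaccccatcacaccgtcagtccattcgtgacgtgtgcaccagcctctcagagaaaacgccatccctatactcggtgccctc
Cldn18 downstream start, chr9:99710064-99710313: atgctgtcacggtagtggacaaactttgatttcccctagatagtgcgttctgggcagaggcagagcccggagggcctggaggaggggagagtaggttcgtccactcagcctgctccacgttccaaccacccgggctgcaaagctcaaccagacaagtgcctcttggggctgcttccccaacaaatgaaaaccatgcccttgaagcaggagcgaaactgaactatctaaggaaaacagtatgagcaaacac

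As a pool, the 9 claudins summed to 608 ± 69.6 TPM in BCAM high, 1036 ± 164 in the BCAM low group and 1047 ± 277 in the differentiated group (SD, n = 8). They made up 97.6% ± 0.919, 97.7% ± 1.63 and 95.85% ± 0.886 of the TPM of all claudin genes. The sum ran from 558 to 769 TPM in BCAM high and from 854 to 1279 in BCAM low, with no overlap, and the differentiated range of 564 to 1380 covered both. The shift of TPM over all genes is toward higher values in BCAM high, and the sums are not corrected for it.

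Within the pool the shares of Cldn3 and Cldn8 separated BCAM high from BCAM low. Cldn3 made up 24.5% ± 3.39 of the pool in BCAM high, 38.3% ± 3.47 in the BCAM low group and 43.5% ± 2.75 in the differentiated group. The BCAM high libraries, at 18.3% to 29.8%, lay wholly below the BCAM low ones at 32.7% to 42.9%. Cldn8 made up 10.1% ± 2.78, 4.53% ± 1.15 and 3.46% ± 0.942, and the BCAM high libraries, at 5.94% to 13.8%, lay wholly above the BCAM low ones at 2.51% to 5.78%. Cldn7 made up 42.1% ± 3.40, 37.9% ± 3.98 and 35.7% ± 2.82, with overlap between all groups. The ratio of Cldn3 to Cldn7 in TPM was 0.585 ± 0.0869 in BCAM high, 1.03 ± 0.194 in the BCAM low group and 1.23 ± 0.165 in the differentiated group. Cldn10 went from 1.93% ± 0.633 of the BCAM high pool in batch 1 to 14.4% ± 2.97 in batch 2, and from 0.869% ± 0.217 to 7.52% ± 2.36 of the BCAM low pool. Cldn4 held 13.6% ± 1.34 of the BCAM low pool in batch 1 and 7.07% ± 2.06 in batch 2.

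**Figure D4:**
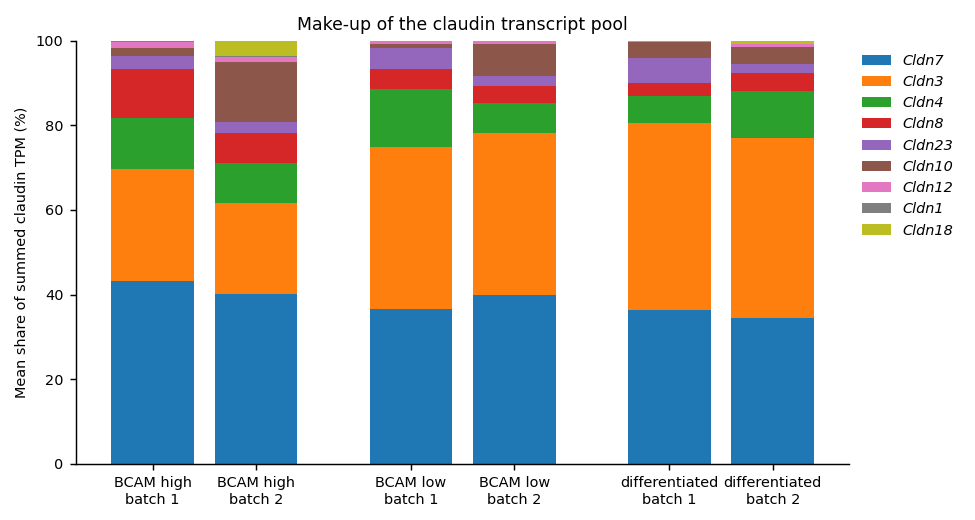
Mean share of each claudin in the summed TPM of the 9 genes, as stacked bars in percent for each group and batch on the x axis. Cldn7 and Cldn3 fill more than the other claudins together in every bar, and the Cldn10 share in BCAM high goes from 1.93% in batch 1 to 14.4% in batch 2.

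Between the batches over all groups, 5 of 8 claudins were called, beside 21.4% of all genes (11.8% higher and 9.61% lower in batch 2): Cldn10 was higher in batch 2 at 1.91 ± 0.422 on the log2 scale, and Cldn3 (-0.46 ± 0.126), Cldn4 (-0.59 ± 0.132), Cldn8 (-0.54 ± 0.108) and Cldn23 (-1.22 ± 0.315) were lower. These changes did not fall in the same group for each gene. Cldn3, Cldn7 and Cldn23 were called between batches within differentiated, where 20.1% of all genes were called, Cldn4 and Cldn10 within BCAM low (11.1% of all genes), and Cldn8 and Cldn10 within BCAM high (8.04%). The difference of BCAM high from BCAM low depended on batch, by the call, for none of the 8 claudins and for 1.06% of all genes. For BCAM high against differentiated it did so for Cldn10 and Cldn23 (2.26 higher in batch 2 on the log2 scale), beside 8.69% of all genes. For BCAM low against differentiated it did so for Cldn10, Cldn23 (1.73), Cldn3 (0.90), Cldn7 (0.69) and Cldn4 (-0.84), beside 11.4% of all genes.

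With the mean of each group and batch removed, Cldn3 varied with Cldn7 over the 24 libraries (Pearson r 0.709) and with Cldn23 (r 0.58), while Cldn3 and its neighbour Cldn4 had an r of 0.188. These r values are a description; the points share libraries and depth. By the same measure the genes most like Cldn3 among 9414 compared included Tppp3 (r 0.858) and Avpi1 (0.842). The largest of so many r values are raised by that selection, and how large they would be with no link was not tested. Cldn1, named last, rests on 0 to 40 counts in a library. The genes most like Cldn7 were Pxmp2 (0.847), Tm4sf1 (0.846) and Sssca1 (0.819). Those most like Cldn10 were Cracr2b (0.846), Rce1 (0.833) and the proton pump gene Atp6v1c2 (0.827), and those most like Cldn23 were Oit1 (0.842), Akr1c18 (0.83) and Ttc9 (0.819). For Cldn4 they were Zfp236 (0.757), Efnb1 (0.746) and mt-Nd4 (0.728), for Cldn8 Xndc1 (0.835), Mr1 (0.808) and H13 (0.803), for Cldn12 Rhbdd2 (0.773), Rhbdd1 (0.76) and Zfp809 (0.725), and for Cldn1 the basal keratin Krt5 (0.765), Casz1 (0.709) and Tns4 (0.679).

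The split of reads among transcripts of a claudin was not used to choose the members and was tested. Cldn7, Cldn10, Cldn12 and Cldn23 had a next transcript of at least 10% of the TPM, which gave 12 comparisons, each an exact two-sided permutation test within batches. None passed Benjamini-Hochberg adjustment and 1 had an unadjusted p under 0.05: Cldn23-201 held 77.7% ± 25.4 of the Cldn23 TPM in BCAM low (n = 8) and 50.5% ± 13.6 in the differentiated group (n = 7), with an exact permutation p of 0.0361 and an adjusted p of 0.433. In BCAM high Cldn23-201 held 54.8% ± 24.5. By estimated counts Cldn23-201 held 91.5%, 96.3% and 91.6% in BCAM high, BCAM low and differentiated, and the other transcript, Cldn23-202, has 232 bases. Cldn7-205, with 373 bases, held 41.7% ± 10.3, 41.3% ± 7.58 and 44.4% ± 20.9 of the Cldn7 TPM in BCAM high, BCAM low and differentiated. Of the Cldn7 counts it held 15.5%, 15.7% and 17.1%, while Cldn7-201 held 64.2%, 64.1% and 62.3%. The lead transcript of Cldn12 ranged from under 1% to 100% between libraries of the same group, so its shares could not separate groups. Cldn12-201, Cldn12-202 and Cldn12-203 have 3597, 3477 and 3519 bases and nearly the same ends. In many libraries almost all counts fell on 1 of them, as 59 on Cldn12-203 in BCAM low replicate 2 and 36.0 on Cldn12-202 in BCAM low replicate 8. Whether the counting can tell them apart was not tested.

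Of the other claudins, 3 passed the filter: Cldn2, Cldn22 and Cldn34c1. Cldn2, a pore for cations and water, was lower in both BCAM groups than in differentiated: its mean was 0.295 ± 0.420 CPM in the BCAM high group, 1.11 ± 1.38 in the BCAM low group and 19.997 ± 20.7 in the differentiated group, with log2 changes of -5.73 ± 0.825 (edgeR adjusted p = 2.91e-06) and -4.07 ± 0.72 (edgeR adjusted p = 8.1e-05) for the BCAM groups against differentiated. Cldn22 averaged 1.53 ± 1.54, 10.04 ± 12.8 and 40.0 ± 24.6 CPM and was lower in BCAM high than in differentiated by edgeR, at -5.08 ± 1.01 (adjusted p = 0.000323). In batch 2 alone that change was -2.72 and not called (edgeR adjusted p = 0.0542). In BCAM low Cldn22 was at 0 to 4.26 CPM in batch 1 and at 18.9 to 28.2 CPM in batch 2, and in differentiated at 38.3 to 73.0 and at 3.39 to 30.9 CPM, so that BCAM low against differentiated was -2.94 ± 0.993 over all libraries (edgeR adjusted p = 0.0267) and 0.74 in batch 2 alone. That call was lost when any 1 of BCAM low replicates 1 to 5 was left out, at log2 changes of -2.90 to -2.54. Cldn34c1, one of several related Cldn34 genes between which the counting could split reads, averaged 6.59 ± 1.87, 6.83 ± 2.28 and 6.66 ± 1.62 CPM. Cldn5, the claudin of endothelium, had 68 counts over the BCAM high group, 76 over BCAM low and 0 in differentiated, at least 12.3-fold and 14.2-fold higher than a floor of 3 counts over the differentiated group. The summed CPM of 8 endothelial markers ran between 24.5 and 72.1 for BCAM high, 23.2 and 79.6 for BCAM low and 6.91 and 52.0 for differentiated, where Tie1 was at 0 in batch 1 and Cdh5 in batch 2, and their part in the level of Cldn5 was not tested. Cldn6 averaged 0.249 ± 0.432, 0.763 ± 1.12 and 7.25 ± 4.51 CPM, Cldn9 0, 0.189 ± 0.450 and 1.61 ± 1.73 CPM, and Cldn11 0.696 ± 0.486, 1.01 ± 1.14 and 0.0694 ± 0.196 CPM.

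Of 11 tested partners of claudins in the membrane, 4 fell in BCAM high against BCAM low and none rose, beside 7.02% of all genes, and their median log2 change was -0.41, beside 8.83e-05 over all genes. Marveld3, a relative of occludin, fell by 1.18 ± 0.215 on the log2 scale (edgeR adjusted p = 0.000857), the polarity protein gene Crb3 by 0.75 ± 0.185 (edgeR adjusted p = 0.0114) and the adhesion gene Igsf5 by 0.76 ± 0.21 (edgeR adjusted p = 0.0231), and the occludin gene Ocln by 0.52 ± 0.15 (edgeR adjusted p = 0.0305). The Ocln call was lost in each batch alone, without the libraries numbered 6 and without any 1 of BCAM high replicates 2 and 7 and BCAM low replicates 6 and 8. The Igsf5 call was lost without BCAM high replicate 8 (-0.69) and without the libraries numbered 6 (-0.75). The count of 4 was 1 in batch 1 alone, 2 in batch 2 alone, 2 without the libraries numbered 6 and 2 on the log2(TPM + 0.1) scale. Against differentiated, 7 fell and 1 rose in BCAM high (median -0.85) and 4 fell and 1 rose in BCAM low (median -0.39), beside 41.3% and 33.5% of all genes called in either direction, and the median of all genes was 0.02 in both. Igsf5 fell by 2.0 ± 0.212 (edgeR adjusted p = 9.18e-09) and by 1.24 ± 0.205 (edgeR adjusted p = 2.39e-05), and Ildr1, a protein of junctions where 3 cells meet, was lower in BCAM low at -0.84 ± 0.135 (edgeR adjusted p = 1.66e-05; -0.28, not called, in batch 2 alone). The junctional adhesion gene Jam2 was lower at -1.78 ± 0.419 (edgeR adjusted p = 0.001) and -1.36 ± 0.414 (edgeR adjusted p = 0.0118), the second lost without differentiated replicate 8, and F11r, a gene of the same family, rose in both BCAM groups, at 0.82 ± 0.091 (edgeR adjusted p = 2.21e-08) and 0.65 ± 0.0908 (edgeR adjusted p = 2.12e-06).

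**Figure D5:**
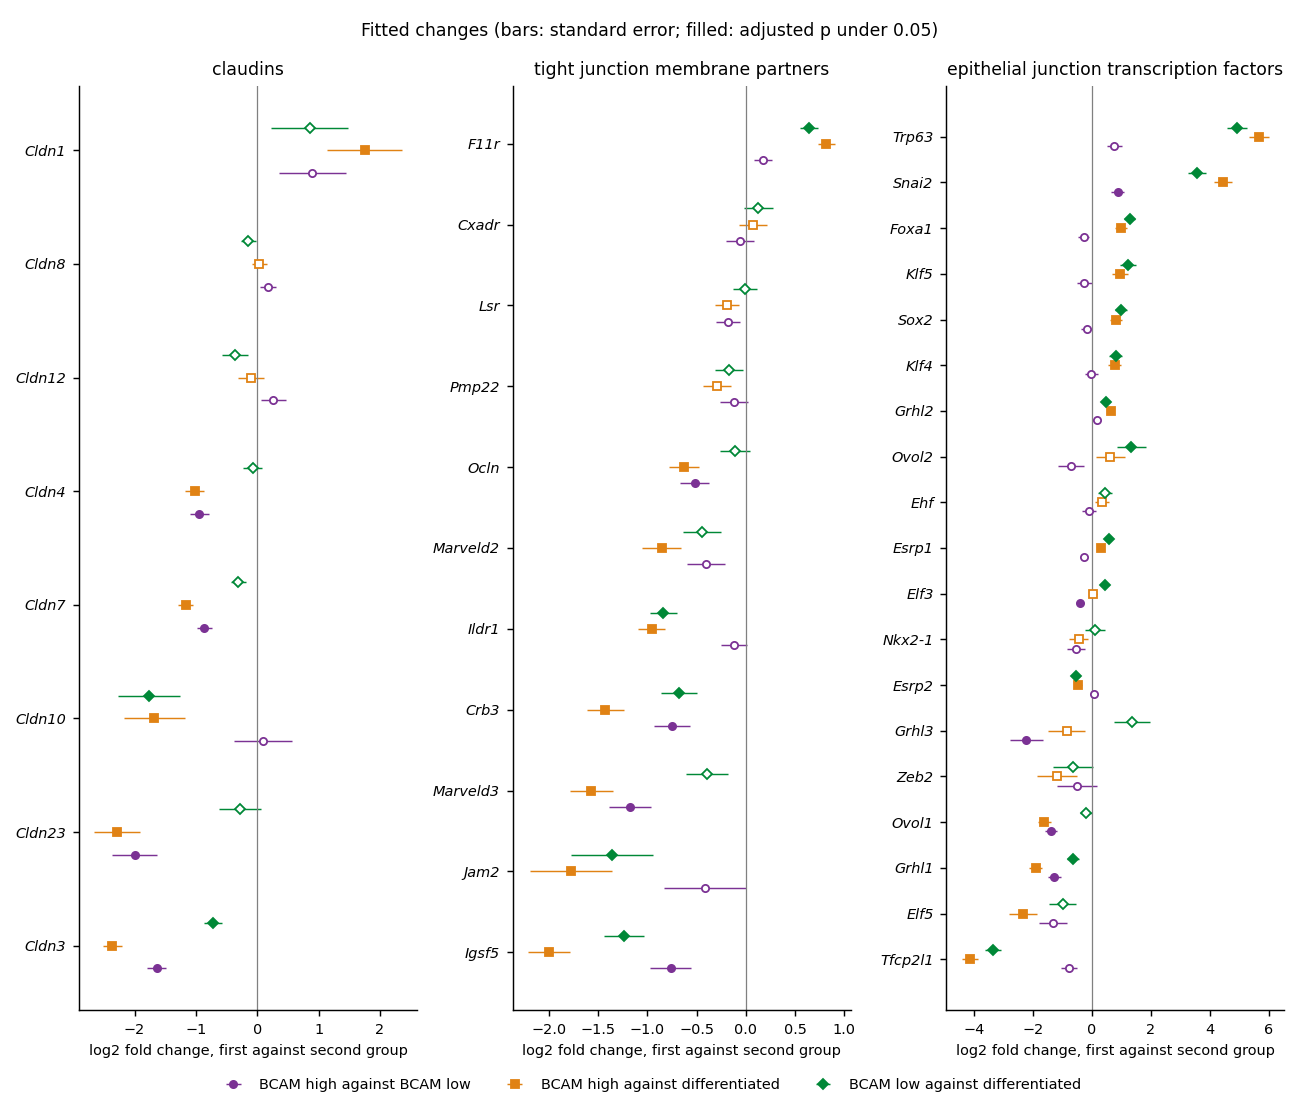
Fitted log2 fold changes on the x axis with standard errors for the 8 filtered claudins, the membrane partners and the transcription factors, in the 3 comparisons; filled symbols have an edgeR adjusted p under 0.05, which for the claudins is a description. Cldn3 reaches -1.64 in BCAM high against BCAM low, and Trp63 reaches 5.66 in BCAM high against differentiated.

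Of 24 tested genes of the plaque that ties claudins to actin, 3 fell and none rose in BCAM high against BCAM low, beside 4.59% of all genes lower and 2.43% higher: Cgnl1 (paracingulin) by 1.84 ± 0.367 (edgeR adjusted p = 0.00201), Tjp3 (ZO-3) by 1.02 ± 0.234 (edgeR adjusted p = 0.00817) and Cgn (cingulin) by 0.79 ± 0.147 (edgeR adjusted p = 0.001). The scaffold gene Tjp1 (ZO-1) did not pass, with a log2 change of -0.18 ± 0.164. Against differentiated, 8 fell and 6 rose in BCAM high and 7 fell and 6 rose in BCAM low, beside 41.3% and 33.5% of all genes, and the 13 calls of the second were 8 in batch 2 alone. The median log2 change of the 24 was -0.09 against BCAM low, -0.13 for BCAM high against differentiated and 0.18 for BCAM low against differentiated. Cgnl1 fell by 3.39 ± 0.368 in BCAM high (edgeR adjusted p = 1.42e-08). Amotl1, an angiomotin that binds YAP, rose by 3.33 ± 0.166 (edgeR adjusted p = 1.95e-15) and by 3.0 ± 0.166 (edgeR adjusted p = 4.92e-14), the scaffold gene Mpdz by 2.55 ± 0.342 (edgeR adjusted p = 5.48e-07) and by 1.95 ± 0.347 (edgeR adjusted p = 6.02e-05), and the polarity gene Pard6g in BCAM low by 2.27 ± 0.318 (edgeR adjusted p = 1.99e-06).

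Of 17 genes whose proteins bind, cleave or move claudins, 3 fell and none rose in BCAM high against BCAM low, where 7.02% of all genes were called: the protease inhibitors Spint2, by 1.10 ± 0.167 (edgeR adjusted p = 0.000138), and Spint1, by 1.07 ± 0.164 (edgeR adjusted p = 0.000111), and their target protease St14 (matriptase), by 0.35 ± 0.0874 (edgeR adjusted p = 0.0134). The St14 call was lost in each batch alone, with no filter on low counts, without the libraries numbered 6 and on both TPM scales. Epcam, which stabilises Cldn7 in other epithelia, was at -0.23 ± 0.0878 and did not pass. Against differentiated, 6 fell and 4 rose in BCAM high and 6 fell and 3 rose in BCAM low, beside 41.3% and 33.5% of all genes, and the medians of the list were -0.09, -0.09 and -0.04 in the order used above, with the membrane protease gene Prss8 at -1.70 ± 0.137 (edgeR adjusted p = 4.68e-11) and -1.57 ± 0.137 (edgeR adjusted p = 4.43e-10). Spint2 fell by 1.65 ± 0.169 (edgeR adjusted p = 9.71e-09) and Spint1 by 1.62 ± 0.167 (edgeR adjusted p = 5.12e-09) in BCAM high. In BCAM low the tetraspanin gene Cd81 fell by 1.24 ± 0.187 (edgeR adjusted p = 1.06e-05) and the ephrin gene Efnb1 rose by 1.23 ± 0.233 (edgeR adjusted p = 0.000139).

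Of 19 tested transcription factors of epithelial junctions, 4 fell and 1 rose in BCAM high against BCAM low, beside 4.59% and 2.43% of all genes. Grhl3 fell by 2.23 ± 0.571 (edgeR adjusted p = 0.015) and Grhl1 by 1.28 ± 0.213 (edgeR adjusted p = 0.000316), both of the Grainyhead-like family that activates junction genes, and the zinc finger gene Ovol1 by 1.40 ± 0.214 (edgeR adjusted p = 0.000111). The third family member, Grhl2, was at 0.16 ± 0.118 and did not pass. The count of 5 was 8 with DESeq2 and 1 in batch 2 alone. Against differentiated, 8 rose and 5 fell in BCAM high, where 19.4% of all genes rose and 22.0% fell, and 10 rose and 3 fell in BCAM low, where 16.3% rose and 17.1% fell. The medians of the 19 were -0.28, 0.29 and 0.48 in the same order. Trp63 rose by 5.66 ± 0.34 (edgeR adjusted p = 7.4e-12) and 4.90 ± 0.335 (edgeR adjusted p = 1.29e-10). Snai2, a repressor of junction genes, rose by 4.44 ± 0.308 (edgeR adjusted p = 2.4e-12) and 3.57 ± 0.313 (edgeR adjusted p = 4.89e-10). Tfcp2l1, of the wider Grainyhead family, fell by 4.14 ± 0.283 (edgeR adjusted p = 2.49e-11) and by 3.35 ± 0.273 (edgeR adjusted p = 9.79e-10). Trp63 defines basal cells, by which the groups are set apart.

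Of 13 genes of the adherens junction, the belt below the tight junction, 1 fell in BCAM high against BCAM low, a share near the 7.02% of all genes called: Nectin4, by 1.65 ± 0.229 (edgeR adjusted p = 2.86e-05). That count was 3 without differentiated replicate 6 and 2 without any 1 of BCAM high replicates 1, 6 and 7, BCAM low replicates 2 and 4 and differentiated replicates 2, 4 and 7. It was 3 in batch 1 alone and 4 with only the 2 groups compared. Against differentiated, 4 rose and 2 fell in BCAM high and 3 rose and 2 fell in BCAM low, shares near the 41.3% and 33.5% of all genes called, and the calls were 11 and 8 on the log2(TPM + 0.1) scale. The medians of the 13 were -0.17, 0.26 and 0.28. The cadherin gene Cdh3 rose by 5.91 ± 0.38 (edgeR adjusted p = 2.4e-12) and 5.23 ± 0.388 (edgeR adjusted p = 6.72e-11) and Nectin1 by 4.38 ± 0.383 (edgeR adjusted p = 2.16e-10) and 4.55 ± 0.382 (edgeR adjusted p = 2.06e-10). Nectin4 fell by 2.24 ± 0.233 in BCAM high (edgeR adjusted p = 6.47e-09) and Nectin2 by 0.94 ± 0.148 in BCAM low (edgeR adjusted p = 1.18e-05). The E-cadherin gene Cdh1 did not pass, at -0.40 ± 0.126, -0.31 ± 0.126 and 0.09 ± 0.126 in the order used above.

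Some calls of these lists did not hold in 1 batch or on the TPM scale. In batch 2 alone, with 3 libraries a group, Crb3 (-0.85), Cgnl1 (-1.39), Tjp3 (-0.75), Grhl3 (-1.19) and Ovol1 (-0.98) were not called between BCAM high and BCAM low, nor were Mpdz (0.88) and Efnb1 (0.99) between BCAM low and differentiated. In batch 1 alone Marveld3 (-0.93) and Igsf5 (-0.60) were not called between BCAM high and BCAM low, nor was Jam2 (-1.02) between BCAM low and differentiated. On the log2(TPM + 0.1) scale the calls of Igsf5 (-0.60), Crb3 (-0.44), Cgnl1 (-1.01) and Grhl3 (-1.80) were lost in the comparison of the BCAM groups. Against differentiated on that scale, Jam2 lost its call in BCAM high (-0.71) and in BCAM low (-1.14), and Ildr1 (-0.27) and Nectin2 (-0.46) lost theirs in BCAM low. All of these kept their sign.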

How the data were processed

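RNA of 1000 sorted cells per library was sequenced for 24 libraries, 8 in each of 3 groups. Per the file headers, the authors deposited estimated counts and TPM for each transcript, and per the submitters' processing notes these came from kallisto, with Picard and the genome build GRCm39 also named and other settings not given in the sources used here. Of 117497 transcripts, 116374 were matched by ID to GENCODE M21 (GRCm38), the source of gene symbols and coordinates here; the rest held 0.317% to 0.594% of the estimated counts of a library. Deposited estimated counts and deposited TPM were summed per gene, and the counts were rounded to whole numbers.

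Genes were tested with edgeR 4.0.16 (limma 3.58.1, R 4.3.3): TMM scaling, a filter on low counts by group, group and batch as terms, all 24 libraries in 1 robust quasi-likelihood fit, and Benjamini-Hochberg adjustment over the 12211 genes kept, with calls at an adjusted p under 0.05. The code was tested on simulated data. The standard errors given for log2 changes were derived from the test, as the absolute log2 change divided by the square root of its F statistic. CPM are counts scaled to a common total with TMM factors. Transcript shares used the libraries with at least 20 counts of the gene, where at least 4 libraries of a group had them and a next transcript held at least 10% of the TPM. The deposited reads carry no molecular identifiers, so the floor of 3 counts covers counting error only. Alternatives were DESeq2 1.42.0, its size factors, no filter, a replicate block, no batch term, only the 2 groups compared, each batch alone, limma on log2(TPM + 0.1) and log2(TPM + 1), each library left out, and, chosen after seeing the data, the 3 libraries numbered 6 left out together.

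The claudins, the pathway and marker lists and the tests were chosen with earlier results of these data known. Of each pathway list, the up to 3 called genes with the largest log2 change per comparison are named, and so is every other claudin with a mean of at least 1 CPM in a group; Ocln, F11r, Tjp1, Epcam, Grhl2 and Cdh1 were named after their values were seen. For each member, the 3 genes most like it were taken from genes with a mean of at least 10 CPM, as Pearson r of log2 CPM after removing the mean of each group and batch. Some genes that these rules name are not reported here.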

Additional observations from a re-analysis of the deposited data

Results flagged for a closer look

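Of 46 sets of 8 libraries checked, 10 had a highest library apart from the others by more than Dixon's 95% limit. For normally spread values chance alone marks about 1 set in 20. CPM of genes with few counts are not spread so, and where all other libraries are at 0 any count is flagged. Cldn18 stood out in replicate 6 of every group: 131 CPM against 0.480 in the next library in BCAM high, 6.18 against 0.886 in BCAM low and 64.4 against 1.71 in differentiated. Cldn4 was at 291 CPM in differentiated replicate 3, with 209 in the next. Among the other claudins, Cldn2 was at 68.7 CPM in differentiated replicate 8, against 19.8 in the next, and Cldn9 at 5.57 CPM in differentiated replicate 2, against 1.73. Cldn5 was at 6.85 CPM in BCAM high replicate 3, against 2.63. The last 3 rest on 5, 3 and 1 counts: Cldn6 at 1.2 CPM in BCAM high replicate 5, Cldn9 at 1.29 CPM in BCAM low replicate 7 and Cldn11 at 0.556 CPM in differentiated replicate 4.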

How the results depend on the processing

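The number of genes called between BCAM high and BCAM low was 857 (297 higher and 560 lower in BCAM high), 545 with no batch term (126 and 419), 1296 with only the 2 groups compared and 543 in batch 2 alone (102 and 441). Between BCAM low and differentiated it was 4086 and, in batch 2 alone, 2221. Between BCAM high and differentiated it was 5044 (2363 and 2681), 7688 on log2(TPM + 0.1) and 7713 on log2(TPM + 1). Between the batches it was 2618 (1444 higher and 1174 lower in batch 2), 1706 on log2(TPM + 0.1) and 1738 without the 3 libraries numbered 6. On log2(TPM + 0.1) the calls were 592 higher and 189 lower for BCAM high against BCAM low, 6809 and 879 for BCAM high against differentiated, 4277 and 624 for BCAM low against differentiated (1996 and 2090 by edgeR) and 1216 and 490 between batches, where all genes shifted by 0.13. Leaving out 1 library at a time gave 685 to 979 calls for BCAM high against BCAM low, 4768 to 5223 for BCAM high against differentiated, 3761 to 4195 for BCAM low against differentiated, 2341 to 2641 between batches, and 0 to 0 transcript shares past the adjusted threshold.

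In batch 2 alone the sign turned for Cldn10 against differentiated (0.75 in BCAM high and 0.78 in BCAM low) and for Cldn22 in BCAM low against differentiated (0.74); the cause was not tested. Over 263 values of the 8 claudins under alternatives other than leaving out 1 library, 113 kept a call, 17 lost one, 8 gained one and 2 turned, and 123 were called in neither. Cldn7 in BCAM low against differentiated was also called with DESeq2 (-0.32). Between batches on log2(TPM + 0.1), Cldn3 (-0.31), Cldn4 (-0.41) and Cldn8 (-0.33) were no longer called.

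Same-numbered libraries had correlations of 0.0351 to 0.193 once group and batch means were removed, and 23 of 24 correlated best with their own number. Each was compared with the 5 or 3 libraries of its batch in the other group, where random matches would give far fewer than 23. The labels state no pairing, so none is established, but same-numbered libraries may share a source. The main fit and the permutation tests took the libraries as independent. With the replicate number as a block, 864, 5129 and 4136 genes were called in the 3 comparisons, and Cldn22 in BCAM low against differentiated was not (edgeR adjusted p = 0.0709). Cldn18, with most of its counts in 1 library of each group, is not compared between groups.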
